A study of Mus musculus with 29 samples.

Results

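Transcripts on the membrane-bound polysomes of differentiating C2C12 cells were compared with those of proliferating C2C12 cells. C2C12 is an established line of mouse myoblasts, the precursor cells that fuse into muscle fibres. The comparison used 4 of the 29 samples of the series, chosen by their labels: 2 membrane polysome libraries of differentiating cells, kept in DMEM with 2% horse serum, and 2 of proliferating cells, kept in DMEM with 10% fetal bovine serum. Both media held penicillin and streptomycin. Cytosol and membranes were taken apart, and from each of them polysomes and monosomes were collected, which gave 16 libraries in all. The labels give the monosome libraries of differentiating cells 10% fetal bovine serum in place of 2% horse serum. The part of this in the p-values was not tested on its own. Libraries were made with 3'READS+, an assay that reads transcripts at their poly(A) site, so that a read stands for the 3' end of 1 mRNA and longer mRNAs give no more reads. The differentiating libraries held 7380005 and 6837280 reads and the proliferating libraries 8289093 and 5878446. Nothing in the labels says whether replicates were grown apart, and the spread between them may be technical. The p-values rest on the spread over all 16 libraries, which were fitted together. Within a state, libraries of the same replicate number deviated together (correlations 0.47 to 0.73), so that they may not count as separate replicates. With only the 4 libraries fitted, 334 genes rose and 259 fell, in place of 310 and 469. C2C12 is a single established line, and the labels give no time in differentiation medium.

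Ribosomes that make secreted proteins, plasma membrane proteins and proteins of the endoplasmic reticulum (ER) and lysosome are brought to the ER membrane by the signal peptide or membrane segment of the growing chain, where the Sec61 channel takes the chain in. Enzymes of the ER then fold it, add sugars and send it on. When serum is lowered, myoblasts leave the cell cycle, switch on the muscle regulators of the MyoD family, fuse, and build the sarcomere together with the membrane systems that excite it: the acetylcholine receptor, the T-tubule and the sarcoplasmic reticulum, a specialised ER that stores calcium.

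The labels were checked against marker genes. The summed level of 14 markers of differentiated muscle was 54940 and 11730 CPM (a library-size scaled level, with TMM factors) in replicates 1 and 2 of differentiating cells, against 871.5 and 908.9 CPM in proliferating cells. The 6 markers of cycling cells summed to 88.3 and 175 CPM in differentiating cells and to 679 and 1138 CPM in proliferating cells. The groups did not overlap in either sum, and the differentiating libraries stood well apart from each other: replicate 1 had more muscle and less cycling RNA than replicate 2. The 6 myoblast markers overlapped between the states, with sums of 192 and 345 CPM in differentiating and 261 and 393 CPM in proliferating cells. Of the 5 myoblast markers tested, 1 fell. Markers of adipocytes, macrophages and endothelial cells each summed to at most 1.76 CPM in any of the 4 libraries, and Plin1, Ptprc, Cd68 and Pecam1 were at 0 in all 4. Fibroblast markers summed to 2.63 and 4.66 CPM in differentiating and 2.09 and 1.65 CPM in proliferating cells. Those of osteoblasts and chondrocytes summed to 12.9 and 26.25 CPM in differentiating and 23.1 and 44.0 CPM in proliferating cells. A longer adipocyte list (8 genes with reads) summed to 72.9 and 137 CPM in differentiating and 56.0 and 64.0 CPM in proliferating cells, and a longer fibroblast list (10 genes) to 639 and 1491 CPM in differentiating and 1040 and 691 CPM in proliferating cells. Of the 4 tested genes of that fibroblast list Pi16 rose and Cd34 fell. Pi16, a secreted protein, had 15.2 and 3.73 CPM in differentiating cells and 3 reads in proliferating cells, a ratio of 45.4 (95% counting interval 15.2 to 223.0). Their part in the results was not tested. Nuclear RNA markers summed to 7.89 and 21.2 CPM in differentiating and 45.5 and 20.7 CPM in proliferating cells. In bulk libraries of this kind, fewer cells of a type and less RNA per cell cannot be told apart.

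Of 11176 genes tested, 310 rose and 469 fell on the membrane polysomes of differentiating cells (edgeR, adjusted p under 0.05). These calls made up 6.97% of the genes tested, 2.77% higher and 4.2% lower. The median log2 change of all genes was -0.12, and 0.02 when libraries were scaled by DESeq2 size factors. That other scaling gave 365 higher and 368 lower genes, so that the higher share of the calls was 49.8% in place of 39.8%. The counts rested on all 4 libraries: without differentiating replicate 1 there were 173 calls, without differentiating replicate 2 389, without proliferating replicate 1 295 and without proliferating replicate 2 121. A core of 32 higher and 62 lower genes was called in all 4 of those fits. Among the 32 were Tmem8c, Fxyd1, Jsrp1, Apoe, Mfap5, Postn, Prelp, Wisp2 and Igf1, and among the 62 were Mcm5, Ccnb1, Plk1, Top2a, Lrp8, Tmem48 and Cd34.

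**Figure D1:**
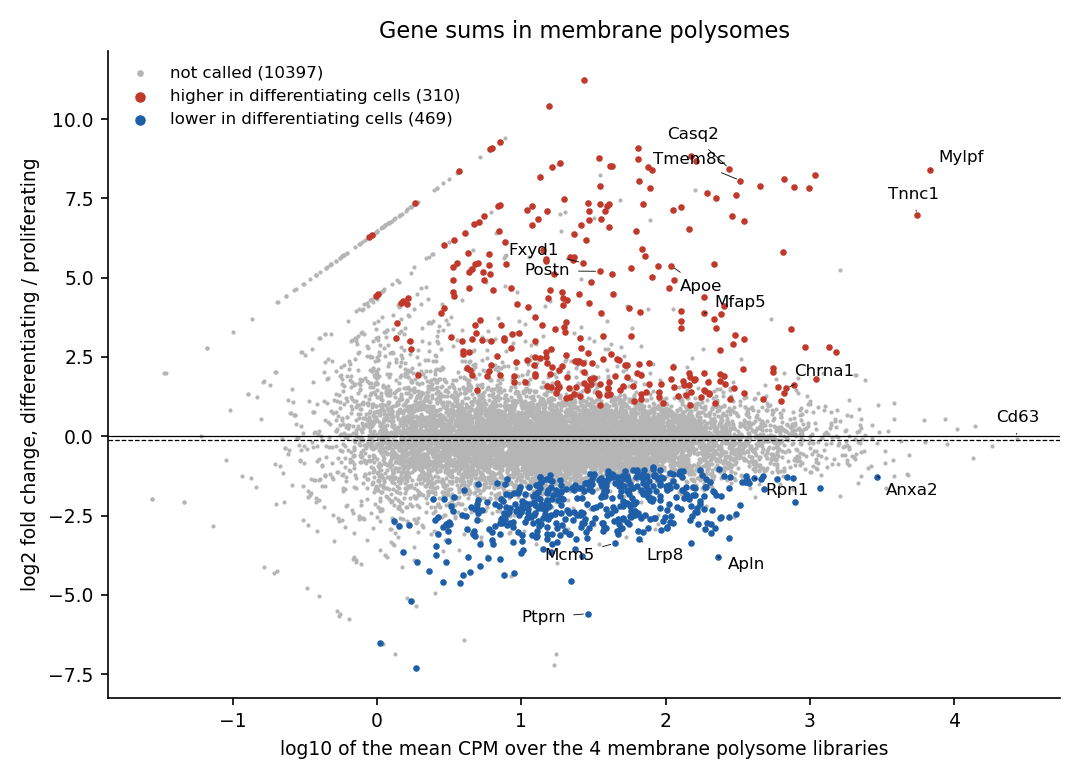
Change of each gene on membrane polysomes (y axis, log2 of differentiating over proliferating cells) against its mean level (x axis, log10 of CPM over the 4 libraries); each point is a gene, red and blue points passed the test, the dashed line is the median of all genes at -0.12, and 5 genes at 0 in all 4 libraries are not drawn. The 310 higher genes include Mylpf, Tmem8c and Casq2 with changes above 8, the 469 lower genes include Ptprn at -5.60, and fitted changes of genes with 0 reads in a group depend on the prior count.

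Genes of the myoblast fusion proteins rose steeply on membrane polysomes. Tmem8c, listed in RefSeq as Mymk and coding for myomaker, the multipass membrane protein that fuses myoblasts, stood at 1018 and 299 CPM in differentiating cells and at 2.64 and 2.20 CPM in proliferating cells. Both differentiating libraries were far above both proliferating ones, and the gene rose by 8.06 on the log2 scale (SE 0.92, edgeR adjusted p = 0.000508). Gm7325, listed in RefSeq as Mymx and coding for the small fusion protein myomixer that works with myomaker, had 593 and 178 CPM in differentiating cells against 2.64 and 0.917 CPM in proliferating cells, a log2 change of 7.67 (SE 1.22, edgeR adjusted p = 0.00378). Tmem182, a membrane protein of muscle, had 116 and 26.4 CPM against 0.880 and 0.183 CPM, and rose by 6.87 (SE 1.13). The wider list of fusion and myoblast adhesion was mixed. Of its 30 tested members 4 rose and 2 fell, with a median of -0.06. The integrin gene Itga3 fell to 54.9 and 136 CPM in differentiating cells, against 437 and 603 CPM in proliferating cells (log2 -2.44, SE 0.49, edgeR adjusted p = 0.0107). Myof, the gene of myoferlin, a ferlin of membrane fusion and repair, fell by 1.40 (SE 0.30), with 168 and 237 CPM against 498 and 566 CPM.

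Of 20 tested genes of the acetylcholine receptor and of muscle excitability, 8 rose and 0 fell, with a median of 1.67. Chrna1, the ligand-binding alpha subunit of the muscle receptor, stood at 1100 and 923 CPM in differentiating cells and at 312 and 398 CPM in proliferating cells, a rise of 1.51 (SE 0.37, edgeR adjusted p = 0.0291). Chrng, the gamma subunit of the fetal receptor, had 1188 and 207 CPM in differentiating cells against 10.8 and 1.47 CPM in proliferating cells (log2 6.78, SE 1.63, edgeR adjusted p = 0.0293). Both subunits were higher in each differentiating library than in either proliferating one, and the spread between replicates was far wider for Chrng than for Chrna1. Fxyd1, which codes for phospholemman, a small regulator of the sodium pump, had 60.6 and 44.2 CPM in differentiating cells against 1.65 and 0.550 CPM in proliferating cells (log2 5.46, SE 0.58, edgeR adjusted p = 0.000303). Colq, the collagen tail that anchors acetylcholinesterase in the synaptic cleft, had 50.8 and 7.995 CPM against 1.21 and 1.65 CPM (log2 4.36, SE 0.94). Rapsn, the cytosolic scaffold that clusters the receptor, rose by 1.34 (SE 0.34). Scn4a, the sodium channel of muscle, had 24.2 and 3.46 CPM in differentiating cells and 1 read in proliferating cells, a ratio of 198.5 (95% counting interval 35.2 to 7879, for counting error only). For Scn4a that ratio was 50.4 without differentiating replicate 1 and 352 without replicate 2.

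Genes of the sarcoplasmic reticulum and T-tubule rose more often than they fell. Of 30 tested, 12 rose and 2 fell, with a median of 1.79 (1.48 with genes at 0 reads held at their bound). The calsequestrins, which hold calcium inside the reticulum, both rose. Casq2 had 1019 and 86.3 CPM in differentiating cells against 1.65 and 1.47 CPM in proliferating cells (log2 8.44, SE 1.71, edgeR adjusted p = 0.0133), and Casq1 had 555 and 44.0 CPM against 0.550 and 0.734 CPM (log2 8.85, SE 2.00, edgeR adjusted p = 0.0220). Replicate 1 of differentiating cells held far more of both than replicate 2. Srl, which codes for the calcium-binding glycoprotein sarcalumenin, had 196 and 50.2 CPM in differentiating cells against 1.43 and 1.28 CPM in proliferating cells (log2 6.47, SE 1.03, edgeR adjusted p = 0.00341). Jsrp1, a membrane protein at the junction of reticulum and T-tubule, had 65.9 and 30.1 CPM against 2.09 and 2.20 CPM (log2 4.47, SE 0.71). Ryr1, the calcium release channel, had 86.9 and 30.9 CPM against 1.54 and 2.57 CPM (log2 4.86, SE 1.05). Its partner in the T-tubule is the voltage sensor Cacna1s, which had 110.8 and 26.9 CPM in differentiating cells and 2 reads in all in proliferating cells, a ratio of 495 (95% counting interval 137 to 4095), which was 196 without differentiating replicate 1 and 806 without replicate 2. The calcium pump Atp2a1 rose by 5.56 (SE 1.28), Hrc, a calcium-binding protein of the lumen, by 6.66 (SE 1.16), and Cav3, the caveolin of muscle, by 7.52 (SE 1.91). The members that fell were Myof, described above, and Asph (log2 -1.33), which codes for aspartyl hydroxylase and junctin. The calcium pump Atp2a2, which slow muscle and other tissues use, and the release channels Itpr1 and Itpr3 were at -1.42, -1.69 and -1.3 and were not called.

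Of 24 tested genes of the dystrophin complex and sarcolemma, 4 rose and 1 fell, with a median of 0.43. Sgca, alpha-sarcoglycan, had 292 and 115 CPM in differentiating cells against 9.46 and 6.24 CPM in proliferating cells (log2 4.68, SE 0.76, edgeR adjusted p = 0.00362). Sgcb and Sgcd, of the same complex, did not pass, at 0.91 and -1.61. Trim72, a cytosolic protein that patches torn membrane, had 98.3 and 11.5 CPM in differentiating cells and 0 reads in proliferating cells, where 3 reads over the group set a bound of at least 262-fold higher. That bound was 55.6-fold without differentiating replicate 1, 476-fold without replicate 2, and 98.2-fold and 164-fold without proliferating replicates 1 and 2. The call of Trim72 was lost in 3 of these fits (edgeR adjusted p = 0.0934 without differentiating replicate 1, and 0.126 and 0.176 without proliferating replicates 1 and 2). Pomt2, an ER enzyme that starts the sugar chain of alpha-dystroglycan, fell to 45.8 and 54.1 CPM in differentiating cells, against 104 and 150 CPM in proliferating cells (log2 -1.34, SE 0.34, edgeR adjusted p = 0.0316).

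**Figure D2:**
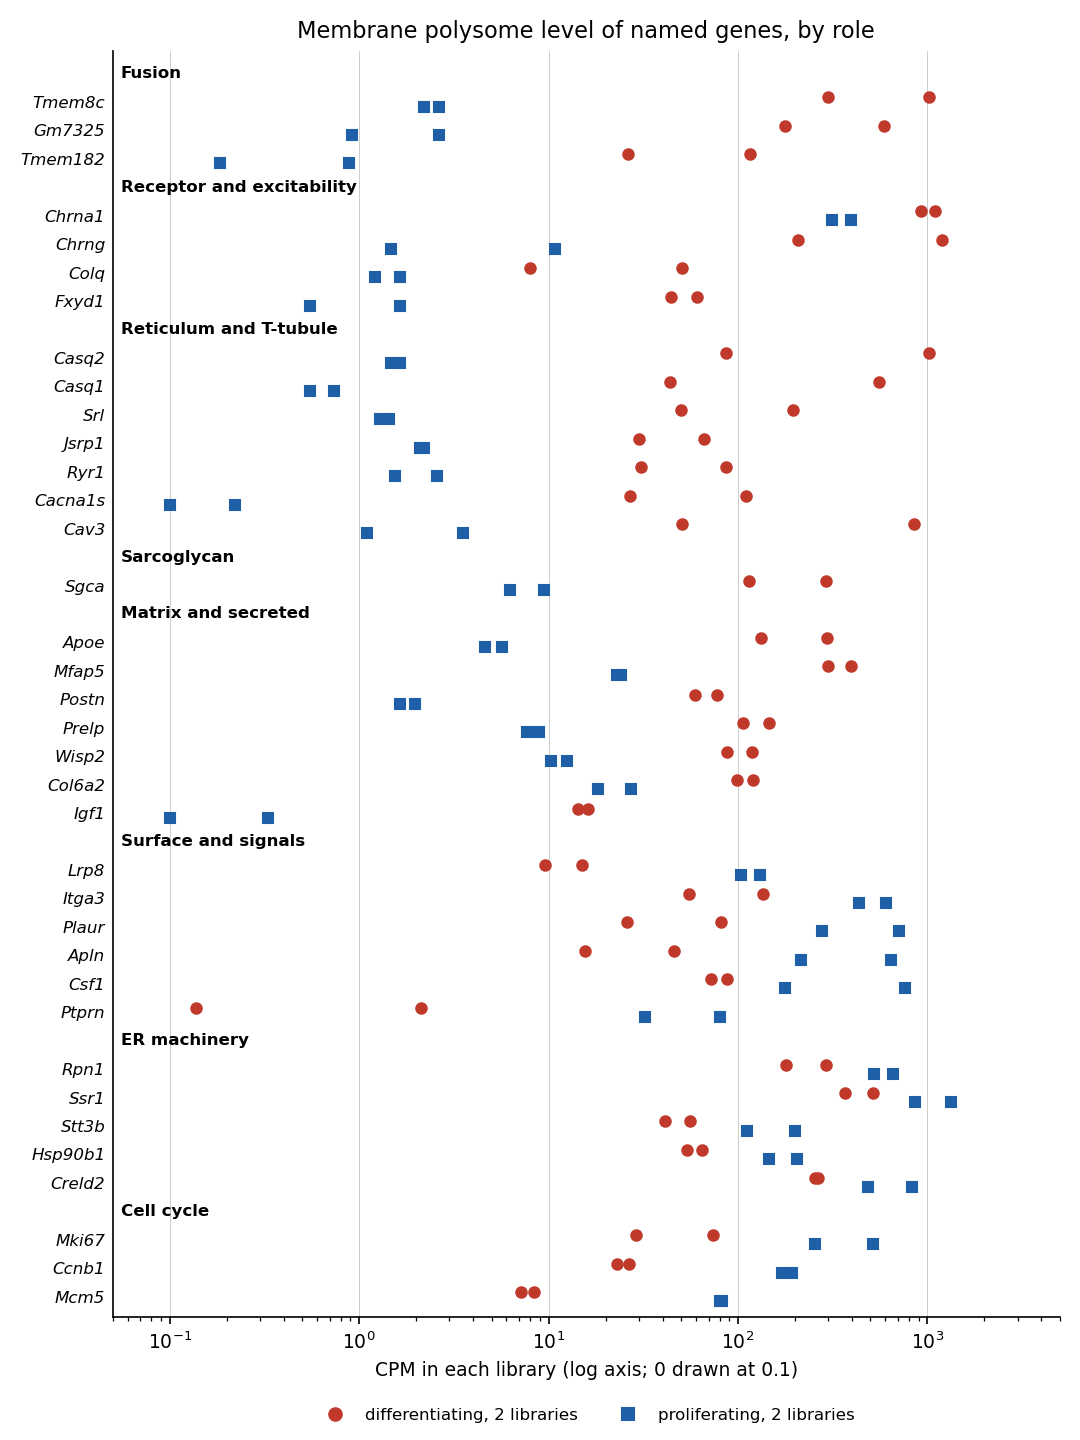
Level of named genes in each membrane polysome library, grouped by role (x axis, CPM on a log axis); red circles are the 2 differentiating and blue squares the 2 proliferating libraries, and 0 is drawn at 0.1. Muscle membrane genes and several matrix genes lie to the right in differentiating cells, and surface, ER machinery and cell cycle genes lie to the left, with no overlap of the groups in any gene shown.

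Leaving out 1 library moved these counts widely. Over the 4 fits, 1 to 6 genes of the receptor list, 1 to 12 of the reticulum list, 1 to 4 of the dystrophin list and 1 to 4 of the fusion list were called higher. For the receptor, reticulum and dystrophin lists the count was 1 without proliferating replicate 2, and for the receptor list also without differentiating replicate 1 or proliferating replicate 1.

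Muscle regulators of the MyoD family bind the E-box, for which the letters CAGCTG, the same on both strands, are a preferred form. The 58 genes of the 6 muscle lists that rose were looked up among RefSeq promoters of build GRCm38.p6, and 42 matched, with 51 promoters. In the 250 bases before the start, 20 of the 51 (39.2%) held CAGCTG, as did 12.3% of the promoters of all genes tested and 13% of all 32851 promoters in the table. The windows below, chosen from members described here whose promoter holds the box, are 30 bases each, on the strand of the gene, with the E-box in capitals.
Chrna1, chr2:73580413-73580442, minus strand: ctgtgggcagctCAGCTGtcatgcgggcac
Chrng, chr1:87205644-87205673, plus strand: atatcctgggaaCAGCTGacaatgcagtgg
Casq1, chr1:172220073-172220102, minus strand: gggggaaggaacCAGCTGctgggagggagc
Cacna1s, chr1:136052676-136052705, plus strand: tggaaggaatgaCAGCTGcctggccgcagg
Cav3, chr6:112459387-112459416, plus strand: tcccttcttgggCAGCTGctcctgggagga
Tmem182, chr1:40805548-40805577, plus strand: gcctgccattctCAGCTGctggcttggagc
Mylpf, chr7:127211545-127211574, plus strand: cttcctgggctcCAGCTGctgcaggcctcc
The E-box began 92 bases before the start in Chrna1, 155 in Chrng, 195 in Casq1, 123 in Cacna1s, 106 in Cav3, 41 in Tmem182 and 51 in Mylpf. A match of letters is a description of the promoter and not a measurement of binding.

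Transcripts of soluble muscle proteins were also abundant in the membrane polysome libraries. Of 41 tested sarcomere and contractile genes 26 rose and 0 fell, with a median log2 change of 6.96, or 5.52 with the 7 genes at 0 reads in proliferating cells held at their bound. Mylpf, the regulatory light chain of fast myosin, had 22810 and 4448 CPM in differentiating cells against 51.0 and 29.5 CPM in proliferating cells (log2 8.4, SE 1.43, edgeR adjusted p = 0.00527). Tnnc1, the calcium-binding troponin, had 18510 and 3417 CPM against 110.5 and 64.9 CPM (log2 6.96, SE 1.47, edgeR adjusted p = 0.0160). Replicate 1 held far more of each than replicate 2, and both were far above the proliferating libraries. Tnnt3, a troponin of fast fibres, rose by 7.60 (SE 1.00), Actc1, the cardiac actin of young muscle, by 8.10 (SE 1.3), and Lmod3, a nucleator of thin filaments, by 7.33 (SE 0.85). Acta1 (5342 and 934 CPM against 21.0 and 144 CPM) and Ttn (48.7 and 11.6 CPM against 2.20 and 0.734 CPM) did not pass, with edgeR adjusted p of 0.0821 and 0.0915. The sarcomere count ran between 2 and 27 genes when 1 library was left out, the smallest without proliferating replicate 2. In cytosol polysomes 23 of the 41 rose, with a median of 7.49, and Mylpf averaged 18030 ± 17900 CPM in differentiating cells and 23.3 ± 9.51 CPM in proliferating cells (SD, n = 2 each).

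Of 18 tested myogenic regulators 5 rose and 0 fell. Without 1 library in turn 0 to 5 rose, with 0 without proliferating replicate 2 and 1 without differentiating replicate 1 or proliferating replicate 1. Myog, the MyoD family member of terminal differentiation, had 414 and 91.8 CPM in differentiating cells against 1.98 and 1.28 CPM in proliferating cells (log2 7.22, SE 1.43, edgeR adjusted p = 0.0119). Its edgeR adjusted p was 0.0638 without differentiating replicate 1, 0.0149 without differentiating replicate 2, and 0.0998 and 0.180 without proliferating replicates 1 and 2. Mef2c, a partner of the MyoD family, rose by 6.53 (SE 1.65), Smyd1, a methyltransferase of muscle, by 5.82 (SE 1.07), the repressor Hes6 by 2.13 (SE 0.37) and Cdkn1a, the p21 inhibitor of cyclin-dependent kinases, by 2.81 (SE 0.69). Myod1 was at 27.7 and 15.2 CPM in differentiating and 16.4 and 5.87 CPM in proliferating cells, with overlapping groups, and Myf5 at 3.88 and 21.7 CPM against 11.1 and 24.2 CPM.

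Secreted and matrix genes moved in both directions. Of 47 tested matrix glycoproteins and proteoglycans 5 rose and 2 fell, with a median of -0.28. Mfap5, a protein of elastic microfibrils, had 396 and 298 CPM in differentiating cells against 22.9 and 24.2 CPM in proliferating cells (log2 3.88, SE 0.31, edgeR adjusted p = 3.75e-05). Postn, periostin, had 77.1 and 59.4 CPM against 1.98 and 1.65 CPM (log2 5.2, SE 0.48, edgeR adjusted p = 0.00016). Replicates were close within each state for both genes, as for Chrna1 above, and unlike the differentiating replicates of Casq2 and Mylpf. Fmod, the small proteoglycan fibromodulin, rose by 3.09 (SE 0.75), and Sdc2, a cell surface heparan sulphate proteoglycan, by 1.36 (SE 0.28). Cilp, a cartilage matrix protein, had 51.1 and 9.46 CPM in differentiating cells and 3 reads in proliferating cells, a ratio of 145 (95% counting interval 49.2 to 705), which was 45.9 without differentiating replicate 1 and 248 without replicate 2. Prelp, a relative of Fmod outside the list, had 146 and 106 CPM in differentiating cells against 8.91 and 7.70 CPM in proliferating cells (log2 3.91, SE 0.54). Ltbp1, which stores latent TGF-beta in the matrix, fell to 19.8 and 23.9 CPM in differentiating cells, against 91.3 and 176 CPM in proliferating cells (log2 -2.61, SE 0.51, edgeR adjusted p = 0.00875).

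Of 19 tested collagens 1 rose and 1 fell. Col6a2, a chain of the beaded collagen around fibres, had 99.1 and 119 CPM in differentiating cells against 27.2 and 18.2 CPM in proliferating cells (log2 2.26, SE 0.49, edgeR adjusted p = 0.0157). Col18a1, of basement membranes, had 44.3 and 30.7 CPM against 91.2 and 128 CPM (log2 -1.55, SE 0.35, edgeR adjusted p = 0.0206). No collagen was called in any of the 4 fits that left out a library. Of 43 matrix enzymes and inhibitors 4 rose and 1 fell. The metalloproteases Adamts2, which trims procollagen, Adamts4 and Adamts12 rose by 2.33 (SE 0.50), 1.80 (SE 0.48) and 2.62 (SE 0.62), and the cross-linking enzyme Tgm2 by 3.38 (SE 0.42). Plaur, the urokinase receptor, fell to 26.0 and 81.7 CPM in differentiating cells, against 278 and 710 CPM in proliferating cells (log2 -3.20, SE 0.76, edgeR adjusted p = 0.0255).

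Of 53 secreted growth factors and modulators tested, 4 rose and 4 fell. When 1 library was left out, 2 to 4 rose and 0 to 1 fell, with 0 lower without differentiating replicate 1 or proliferating replicate 2. Igf1, the insulin-like factor that drives muscle growth, had 14.3 and 16.1 CPM in differentiating cells and 3 reads in all in proliferating cells, a ratio of 73.7 (95% counting interval 24.9 to 360). Igf2 had 13.7 and 5.06 CPM in differentiating cells and 1 read in proliferating cells, a ratio of 135 (23.9 to 5382), and Fgf21, a hormone that muscle can secrete, had 40.0 and 7.33 CPM and 2 reads, a ratio of 170 (46.7 to 1408). Without differentiating replicate 1 the ratios of Igf2 and Fgf21 were 73.7 and 53.3, and that of Igf1 was 78.2. Wisp2, a matricellular protein of the CCN family, had 88.0 and 118 CPM in differentiating cells against 10.3 and 12.5 CPM in proliferating cells (log2 3.18, SE 0.32, edgeR adjusted p = 0.000289). Apoe, the lipoprotein ligand, had 132 and 295 CPM in differentiating cells against 4.62 and 5.69 CPM in proliferating cells (log2 5.37, SE 0.59, edgeR adjusted p = 0.000349). Here replicate 2 was the higher differentiating library. Among the factors that fell were Apln, Ereg and Nrg1. Apln, the ligand of the apelin receptor, had 15.6 and 46.0 CPM in differentiating cells against 216 and 645 CPM in proliferating cells (log2 -3.80, SE 0.83, edgeR adjusted p = 0.0167). Ereg and Nrg1, ligands of the EGF receptor family, fell by 2.47 and 2.20.

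Lists of surface receptors and adhesion proteins had medians below that of all genes, with calls few in number. The share that fell was 10.3% for integrins and tetraspanins and 6.38% for growth factor and guidance receptors, against 4.2% of all genes tested. It was 3.7% for chemokines, cytokines and interferon-induced genes and 0% for Notch, Wnt and Hedgehog membrane proteins. Of 47 genes on the list of growth factor and guidance receptors 0 rose and 3 fell (median -0.45), and 0 to 1 fell when 1 library was left out. The receptor kinases Epha2 and Mertk fell by 2.52 (SE 0.64) and 2.18 (SE 0.54), and Sema7a, a membrane-anchored semaphorin that the list holds although it is a ligand, by 1.56 (SE 0.40). Lrp8, the receptor of reelin and apolipoprotein E, had 9.55 and 15.1 CPM in differentiating cells against 104 and 131 CPM in proliferating cells (log2 -3.26, SE 0.39, edgeR adjusted p = 0.000599). Csf1, the macrophage growth factor, was the 1 call of 27 chemokines, cytokines and interferon-induced genes, with 71.8 and 87.8 CPM against 178 and 766 CPM (log2 -2.56, SE 0.69, edgeR adjusted p = 0.0414). Of 29 integrins and tetraspanins 1 rose and 3 fell, and 0 to 1 in each direction when 1 library was left out. Itga11, a collagen receptor, had 8.995 and 8.66 CPM in differentiating cells against 0.770 and 0.734 CPM in proliferating cells (log2 3.51, SE 0.79), and besides Itga3 the genes Itgav and Cd151 fell by 1.48 (SE 0.42) and 1.25 (SE 0.33). Of 33 Notch, Wnt and Hedgehog membrane proteins 1 rose and 0 fell: Porcn, the ER enzyme that adds the lipid to Wnt proteins, by 2.37 (SE 0.55). Cd34, a surface sialomucin that is also on the longer fibroblast list, had 89.8 and 68.5 CPM against 285 and 301 CPM (log2 -1.89, SE 0.27, edgeR adjusted p = 0.00157). Ptprn, a phosphatase-like protein of secretory granules, fell to 0.138 and 2.13 CPM in differentiating cells, against 32.3 and 80.7 CPM in proliferating cells (log2 -5.60, SE 1.01, edgeR adjusted p = 0.00592).

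**Figure D3:**
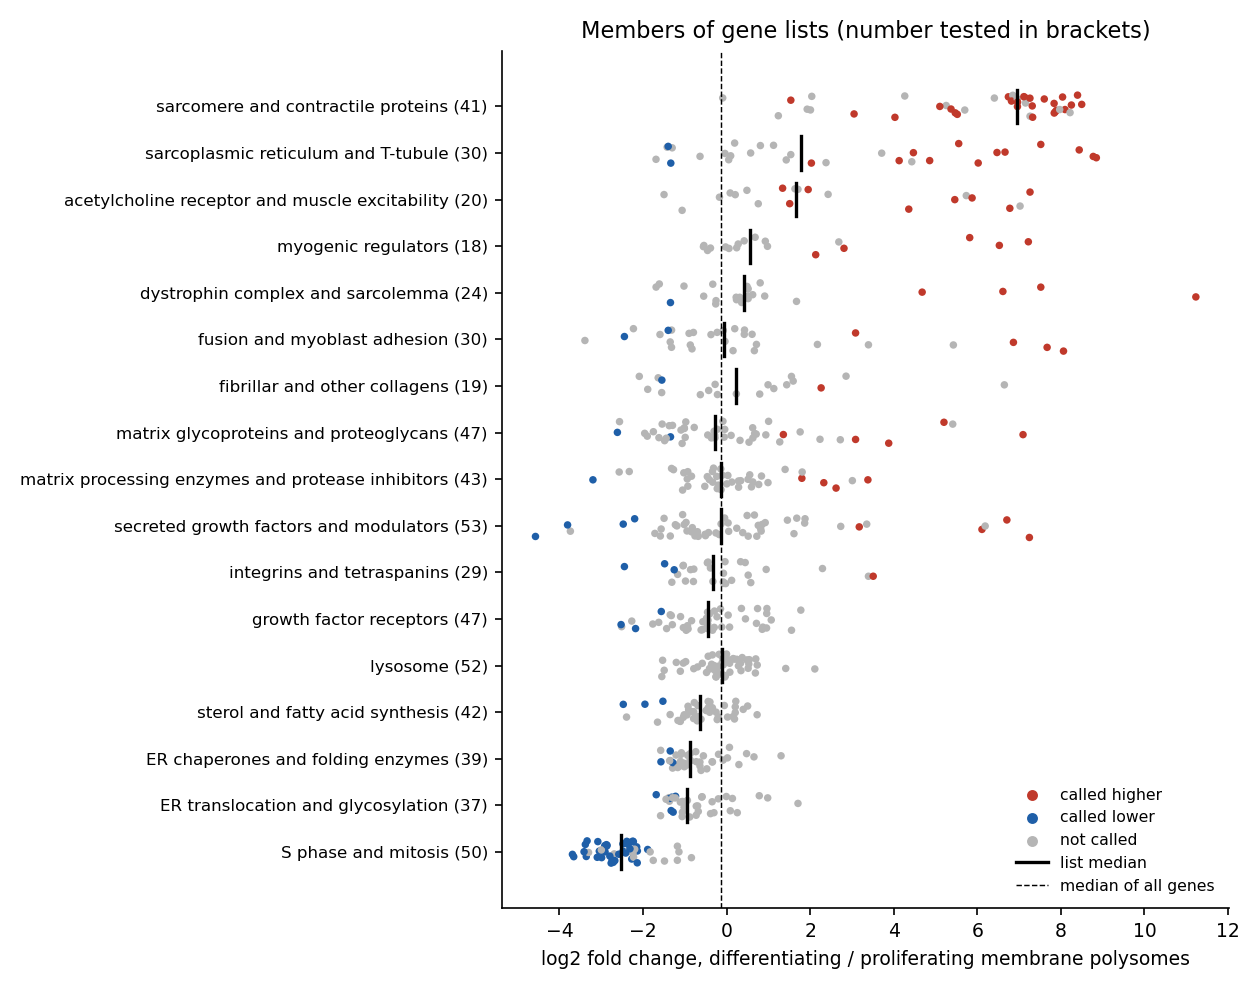
Log2 change on membrane polysomes (x axis, differentiating over proliferating) of the tested members of gene lists (rows); each point is a gene, red and blue points passed the test, the bar is the list median and the dashed line the median of all genes. Sarcomere genes lie around a median of 6.96 and cell cycle genes around -2.53, reticulum and receptor lists spread widely above 0, and the ER chaperone and translocation lists have medians of -0.87 and -0.94; genes with 0 reads in proliferating cells are drawn at their fitted change.

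Genes of the ER's own machinery had medians below that of all genes, with calls few in number. The share that fell was 16.2% for translocation and glycosylation and 7.69% for chaperones, against 4.2% of all genes tested. Of 37 tested genes of translocation and glycosylation 0 rose and 6 fell, with a median of -0.94, and of 39 ER chaperones and folding enzymes 0 rose and 3 fell, with a median of -0.87. The medians were -0.79 and -0.72 under DESeq2 size factors. The DESeq2 test called 9 translocation genes and 5 chaperones lower, and a fit of only the 4 membrane polysome libraries called 0 of either list. In 25 members of each list the groups did not overlap with differentiating cells lower, against 31.5% of all genes tested. Rpn1, a ribophorin of the oligosaccharyltransferase, had 292 and 180 CPM in differentiating cells against 525 and 657 CPM in proliferating cells (log2 -1.33, SE 0.32, edgeR adjusted p = 0.0272). Stt3b, a catalytic subunit of the same enzyme, had 41.4 and 56.0 CPM against 112 and 200 CPM (log2 -1.68, SE 0.37, edgeR adjusted p = 0.0175). Ssr1, a subunit of the translocon-associated complex, had 519 and 366 CPM against 856 and 1340 CPM (log2 -1.31, SE 0.31, edgeR adjusted p = 0.0245). Stt3a, Rpn2 and Magt1, of the same transferase, fell by 1.36, 1.28 and 1.22. In each of these 6 genes the differentiating libraries were below the proliferating ones.

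Among chaperones Hsp90b1, the GRP94 chaperone of the lumen, had 64.6 and 53.7 CPM in differentiating cells against 146 and 206 CPM in proliferating cells (log2 -1.57, SE 0.40, edgeR adjusted p = 0.0314). Creld2 had 264 and 254 CPM against 489 and 828 CPM (log2 -1.35, SE 0.35), and Sdf2l1 had 41.2 and 67.6 CPM against 117 and 149 CPM (log2 -1.29, SE 0.34). No chaperone was called in any of the 4 fits that left out a library, and 0 to 2 genes of the translocation list were. Of 28 genes of the unfolded protein response 1 rose and 0 fell: Ddit3, which codes for the stress factor CHOP, had 92.3 and 94.6 CPM against 40.8 and 42.9 CPM (log2 1.16, SE 0.28, edgeR adjusted p = 0.0268). In cytosol polysomes the medians of the translocation and chaperone lists were 0.03 and 0.23, and Rpn1 averaged 11.6 ± 0.00486 CPM in differentiating and 11.4 ± 0.191 CPM in proliferating cells (SD, n = 2 each).

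Genes were classed from libraries outside the comparison, the whole membrane and cytosol fractions of proliferating cells. A gene was called ER-associated where its membrane level was at least 1 log2 unit above its cytosol level in both available pairs of libraries. The class is a fraction and not a protein class: it also holds 5 genes of the S phase and mitosis list (Mki67, Top2a, Cenpe and Cenpf, which fell, and Anln, not called) and the nuclear RNAs Xist, which fell, and Neat1, which was not called. Of 2055 such genes 24 rose (1.17%) and 158 fell (7.69%), with a median of -0.55, or -0.40 under DESeq2 size factors. Of 4492 genes classed as cytosolic 150 rose and 130 fell, with a median of 0.08. Among the ER-associated genes that rose were Casq1, Ryr1, Chrna1, Cacng1, Apoe, Mfap5, Prelp, Wisp2, Col6a2 and Slc2a6. The class was set in proliferating cells, where many muscle genes are low. Tmem8c and Sgca lie outside it, and Casq2, Srl, Hrc, Cacna1s, Fgf21 and Igf2, although secretory or membrane genes, are counted as cytosolic. A low level alone does not place a gene outside. On proliferating membrane polysomes Sgca had 9.46 and 6.24 CPM, and Casq1, which is in the class, 0.550 and 0.734 CPM. Among genes of at least 10 CPM in proliferating cells, 12 of 1635 ER-associated genes rose and 150 fell (median -0.58), and 71 of 2939 cytosolic genes rose and 117 fell (median -0.00). A filter on the level in proliferating cells drops genes that rise from a low level and so favours falls. The balance of rises and falls within a class cannot be read from these filtered counts. Without 1 library in turn, the ER-associated class had 4 to 17 higher and 15 to 71 lower genes, fewest without proliferating replicate 2.

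ER-associated genes held 25.9% and 30.4% of the reads of differentiating membrane polysomes and 31.9% and 35.98% of those of proliferating cells. Cytosolic genes held 53.3% and 47.8% in differentiating cells and 45.2% and 40.9% in proliferating cells. The groups did not overlap in either share, which is of unscaled reads. With TMM scaling the ER-associated sums did not overlap either. The cytosolic sums did, at 542400 and 434100 CPM in differentiating and 409100 and 438500 CPM in proliferating cells. The median change of the ER-associated class was -0.55 in membrane monosomes too, and 0.16 in cytosol polysomes. The purity of the membrane fraction in each library was not tested.

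**Figure D4:**
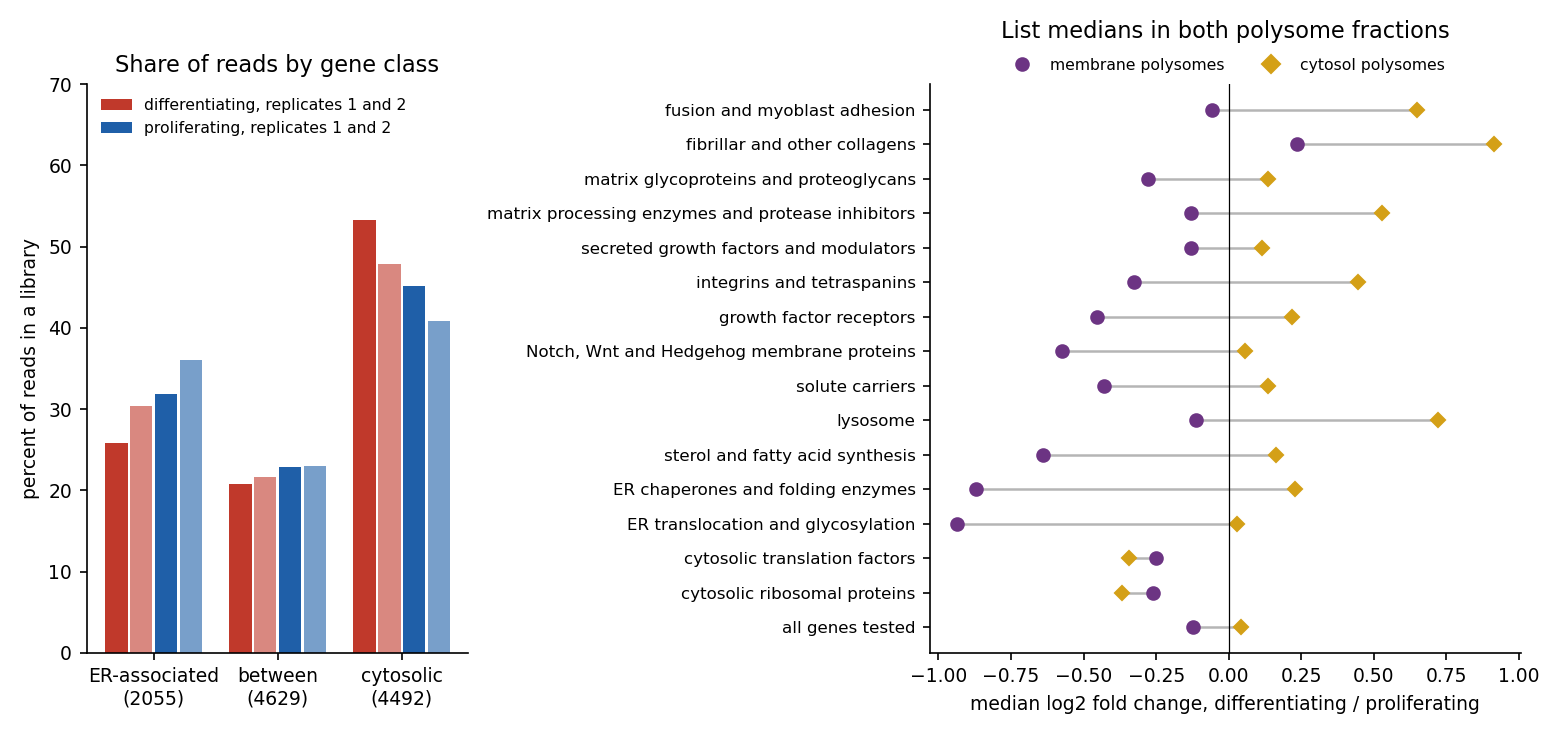
Left, percent of the reads of each membrane polysome library in genes classed as ER-associated, between or cytosolic (number of genes in brackets; dark bars are replicate 1, light bars replicate 2). Right, median log2 change of differentiating over proliferating cells for gene lists in membrane polysomes (circles) and cytosol polysomes (diamonds): ER-associated genes take 25.9% and 30.4% of reads in differentiating cells against 31.9% and 35.98% in proliferating cells, and lists of secretory proteins lie further left in membrane than in cytosol polysomes.

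Other lists of membrane and lipid genes had few calls. Of 184 solute carriers 5 rose and 9 fell (median -0.43). Slc2a6, a lysosomal hexose transporter, had 141 and 25.7 CPM in differentiating cells against 3.85 and 3.49 CPM in proliferating cells (log2 4.49, SE 1.09). The lactate carrier Slc16a1 fell by 1.97 (SE 0.50), the glutamine carrier Slc38a1 by 2.11 (SE 0.45) and the zinc carrier Slc39a6 by 1.69 (SE 0.39). Of 42 genes of sterol and fatty acid synthesis 0 rose and 3 fell (median -0.64), the elongase Elovl6 by 2.47 (SE 0.41), Fasn, the fatty acid synthase, whose log2 change was -1.95 (SE 0.43), and the desaturase Fads2 by 1.52 (SE 0.39). Of 145 genes named Tmem 7 rose and 4 fell. Tmem48, listed in RefSeq as Ndc1, a nuclear pore membrane protein, fell to 17.4 and 18.1 CPM, against 98.2 and 169 CPM (log2 -2.91, SE 0.38, edgeR adjusted p = 0.000849). Of 52 lysosomal genes 0 were called (median -0.11), and Cd63 stood at 22940 and 29800 CPM in differentiating and 25780 and 29680 CPM in proliferating cells.

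Among the gene lists, that of S phase and mitosis had the most lower genes. Of 50 tested genes of S phase and mitosis 0 rose and 36 fell, with a median of -2.53, and 16 to 27 fell when 1 library was left out, fewest without proliferating replicate 2. Mcm5, of the replicative helicase, had 7.2 and 8.4 CPM in differentiating cells against 80.4 and 82.2 CPM in proliferating cells (log2 -3.38, SE 0.32, edgeR adjusted p = 0.00018). Ccnb1, the mitotic cyclin, had 26.6 and 22.9 CPM against 171 and 192 CPM (log2 -2.87, SE 0.36, edgeR adjusted p = 0.000753). Mki67, the proliferation antigen, had 29.1 and 74.1 CPM against 255 and 519 CPM (log2 -2.91, SE 0.67, edgeR adjusted p = 0.0220). In 48 of the 50 genes the groups did not overlap with differentiating cells lower, against 31.5% of all genes tested. In cytosol polysomes 27 of the 50 fell, with a median of -2.13, and Ccnb1 averaged 30.1 ± 5.67 CPM in differentiating and 175 ± 37.2 CPM in proliferating cells (SD, n = 2 each).

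Promoters of mitotic genes are known for CCAAT boxes, which bind the factor NF-Y. Of the 36 lower genes 28 matched the RefSeq promoter table, with 30 promoters. In the 250 bases before the start 23 of the 30 (76.7%) held CCAAT or its reverse complement ATTGG, as did 35.2% of promoters of all genes tested and 33.8% of all promoters. The E-box CAGCTG was in 2 of the 30. The following windows show the box in capitals on the strand of the gene.
Ccnb1, chr13:100786536-100786565, minus strand: gccacgaactggCCAATgaggagcgagcgg
Ccnb2, chr9:70421591-70421620, minus strand: cttccagtctagCCAATgggttgcgcgcgc
Mcm5, chr8:75109420-75109449, plus strand: aagacgccacagCCAATcatcttgggaacc
Top2a, chr11:99024250-99024279, minus strand: ctgcaaacagagCCAATgagagcgagtcgg
Here too the match is of letters only.

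Changes on membrane polysomes were set beside those on cytosol polysomes, which come from other libraries of the same cells. In cytosol polysomes 240 genes rose (2.15%) and 190 fell (1.7%). Of the 310 genes that rose on membrane polysomes 177 (57.1%) also rose on cytosol polysomes, which is 73.8% of the cytosol calls, and 166 of the 469 that fell (35.4%) also fell there, 87.4% of the cytosol calls. The test of the difference between the fractions gave 0 calls in edgeR, where 293 of 11176 genes lay under 0.05 before adjustment, and 0 in DESeq2. Within a state, libraries of both polysome fractions with the same replicate number deviated together (correlations of 0.73 in differentiating and 0.58 in proliferating cells). With that number as a block 4 genes (0.0358%) had a more positive change in membrane polysomes and 47 (0.421%) a more negative one.

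The 4 genes were Casq2, Srl, Sgca and Adamts16. Casq2 rose by 8.44 on membrane polysomes and changed by 4.61 on cytosol polysomes, where it averaged 43.1 ± 44.7 CPM in differentiating and 1.74 ± 0.873 CPM in proliferating cells (SD, n = 2 each). The difference of the changes was 3.55 with the block (SE 0.54, edgeR adjusted p = 0.000387) and 3.83 without it (adjusted p = 1.0). For Srl it was 2.74 (SE 0.63, adjusted p = 0.0331 with the block and 1.0 without), for Sgca 2.49 (SE 0.38, adjusted p = 0.000387 with the block and 1.0 without) and for the metalloprotease Adamts16 2.25 (SE 0.49, adjusted p = 0.0210 with the block and 1.0 without). All code for proteins with a signal peptide or membrane segment. That does not set them apart, since secretory and ER proteins such as Ptprn, Retsat and Fkbp7 are among the genes of opposite sign below.

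With the block, which was chosen after seeing the data, among the 47 with the opposite sign, Ptprn fell by 5.60 on membrane polysomes and was at -0.52 on cytosol polysomes, a difference of -5.02 with the block (SE 0.78, edgeR adjusted p = 0.000493; 1.0 without). Retsat, a retinol saturase of the ER, had 10.7 and 10.9 CPM in differentiating and 53.3 and 50.6 CPM in proliferating membrane polysomes, and 1.2 ± 0.287 against 0.574 ± 0.0967 CPM in cytosol polysomes (SD, n = 2 each). Its difference was -3.28 with the block (SE 0.72, edgeR adjusted p = 0.0212; 0.840 without). Fkbp7, a prolyl isomerase of the ER, was at 0.30 on membrane polysomes, where it was not called, and rose by 3.46 on cytosol polysomes, a difference of -3.14 (SE 0.61, adjusted p = 0.00862 with the block and 0.840 without). Fads2, Eprs and Zfyve16 differed by -3.13, -2.41 and -2.40 with the block.

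Membrane monosomes gave a further comparison, in which the labels put the differentiating cells in medium with 10% fetal bovine serum, unlike the polysome libraries. Whether that is a difference of culture or of labelling is not given, and its part in the result was not tested. The difference between polysomes and monosomes called 0 genes with edgeR (322 of 11176 at an unadjusted p under 0.05) and 2 with DESeq2. With the replicate number as a block within state 65 genes (0.582%) had a more positive and 82 (0.734%) a more negative change on polysomes. Apoe rose by 5.37 on polysomes and by 2.90 on monosomes, a difference of 2.50 (SE 0.38, adjusted p = 0.000574 with the block and 1.00 without, edgeR). Among the 82 was Eef1d, a subunit of the translation elongation factor 1 complex, at -0.88 on polysomes and 1.02 on monosomes, a difference of -2.0 (SE 0.39, edgeR adjusted p = 0.0062 with the block and 1.00 without).

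Site use within genes was compared in 4553 genes with a pair of abundant poly(A) sites, at most 10 kb apart with a median of 677 nt. Only 1 pair passed (0.022%), and 161 had an unadjusted p under 0.05. In Pdlim7, which codes for an adaptor of actin filaments and the Z-disc, the sites lie on the minus strand of chromosome 13 at 55608135 (proximal) and 55599775 (distal) of build mm9, 8360 nt apart. The distal site took 16.8% and 22.7% of the reads of both in differentiating cells and 59.0% and 60.7% in proliferating cells, a log2 change of the distal to proximal ratio of -2.62 (SE 0.37, edgeR adjusted p = 0.00315). The proximal site was thus the main one in differentiating and the lesser one in proliferating cells, on a mean of 7123 reads per library. The call was lost without differentiating replicate 1 and without proliferating replicate 2, when 0 pairs were called. The table marks no gene regions, so alternative last exons, intronic sites and tandem sites of 1 UTR cannot be told apart here.

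The tropomyosin genes Tpm1 and Tpm2, whose products lie along the thin filament and which are known for muscle and non-muscle last exons, shifted in the same direction without passing the test. In Tpm2 (chromosome 4, minus strand, proximal site 43528554 and distal site 43527583) the distal share was 32.8% and 60.3% in differentiating cells against 96.9% and 98.2% in proliferating cells (log2 -5.58, SE 1.10, edgeR adjusted p = 0.315). In Tpm1 (chromosome 9, minus strand, 66875781 and 66870397) it was 8.69% and 45.4% against 85.4% and 93.4% (log2 -5.00, SE 1.82, edgeR adjusted p = 1.0). Both pairs, and that of Vamp2 below, were named by a rule that took only groups without overlap, so that the lack of overlap adds no support. Of the differentiating libraries, replicate 1 had the lower distal share in Tpm1 and Tpm2. In Vamp2, a SNARE of vesicles, the distal share was 28.6% and 50.5% against 78.3% and 76.4% (edgeR adjusted p = 0.648), and in Fem1a 6.46% and 8.80% against 25.5% and 27.9% (edgeR adjusted p = 0.154).

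Other pairs leaned toward the distal site in differentiating cells, also below the threshold. Gsk3b, a kinase that phosphorylates glycogen synthase and beta-catenin, used its distal site, 1431 nt beyond the proximal one, for 28.3% and 18% of reads in differentiating cells and for 0.744% and 0% in proliferating cells (log2 5.64, SE 1.03, edgeR adjusted p = 0.0567). In Rpl22, of the large ribosomal subunit, the distal share was 48.3% and 61.8% against 24.0% and 26.2% (log2 1.88, SE 0.42, edgeR adjusted p = 0.209). In Rptor, the scaffold of the mTORC1 kinase, it was 7.06% and 9.55% against 1.54% and 0% (edgeR adjusted p = 0.209). In proliferating cells the distal site had 3 and 0 reads in Gsk3b and 10 and 0 reads in Rptor. The size of these changes is therefore poorly determined. Among secretory genes, the metalloprotease inhibitor Timp2 had 74.1% and 81.5% distal use against 61.5% and 55.0% (edgeR adjusted p = 0.969), and the prion protein gene Prnp 95.5% and 98.7% against 85.8% and 89.0% (edgeR adjusted p = 0.549). Timp2 and Prnp were named because they passed in a fit with the replicate block, by the rule described for Tpm1 and Tpm2. Their lack of overlap adds no support either.

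**Figure D5:**
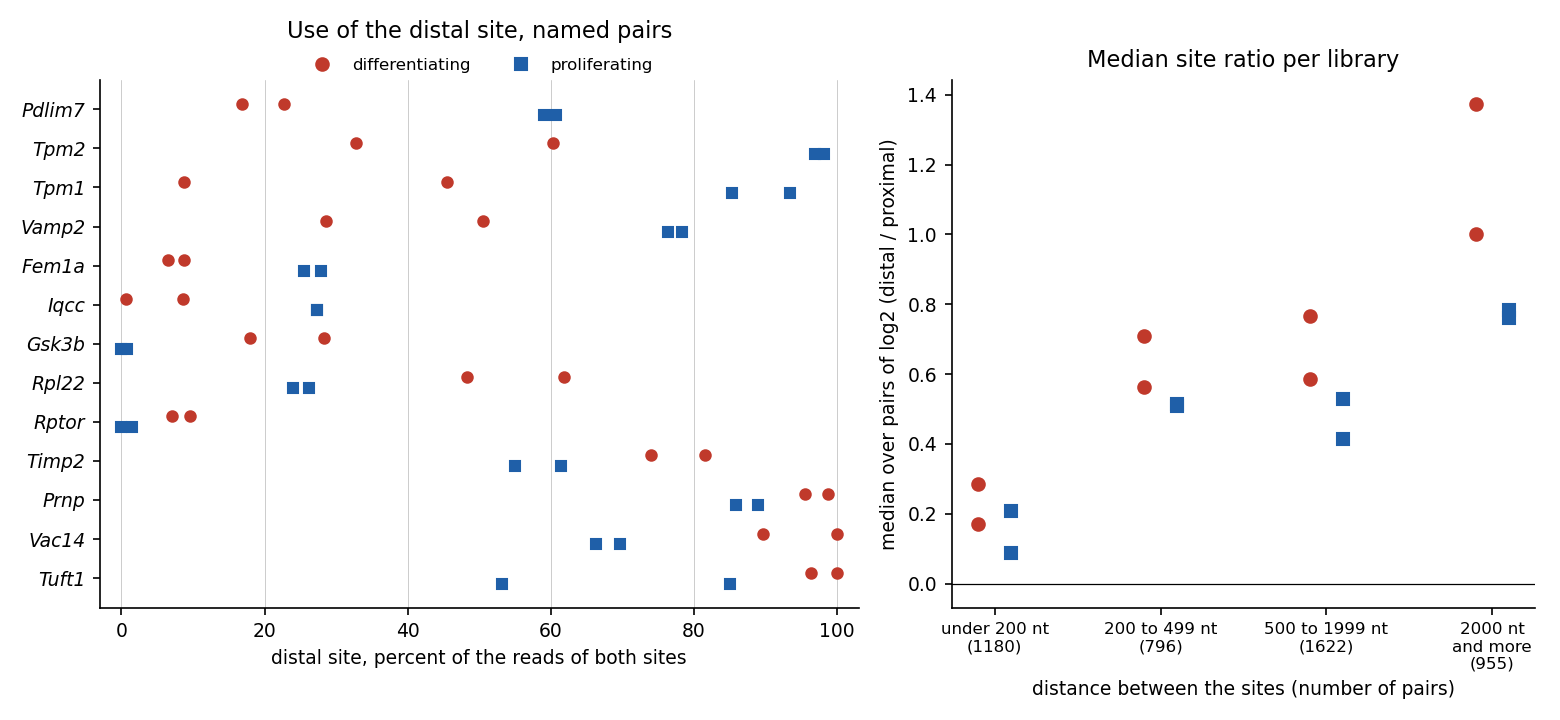
Left, share of the distal site among the reads of both sites of named pairs (x axis, percent; red circles differentiating, blue squares proliferating libraries). Right, median over pairs of log2 distal over proximal reads in each library, by distance between the sites: in pairs at least 2000 nt apart the differentiating libraries are at 1.00 and 1.37 and the proliferating ones at 0.783 and 0.761.

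Across all pairs the log2 change was positive, toward the distal site, in 2784 of 4553 (61.2%). The groups did not overlap with the distal share higher in differentiating cells in 1007 pairs (22.1%) and lower in 503 (11%). Per library, the median log2 of distal over proximal reads (1 read added to each) was 0.585 and 0.737 in differentiating cells and 0.515 and 0.446 in proliferating cells. Their means differed by 0.18, and the two-sided exact permutation test gave p = 0.333, the smallest that 2 libraries against 2 allow. The difference of the means was 0.08 for 1180 pairs under 200 nt apart, 0.12 for 796 pairs from 200 to under 500 nt, 0.20 for 1622 pairs from 500 to under 2000 nt and 0.42 for 955 pairs of 2000 nt and more. The libraries of the states overlapped in the pairs under 200 nt and did not overlap in the longer classes. In cytosol polysomes the median over all pairs was 0.415 and 0.585 in differentiating and 0.217 and 0.263 in proliferating cells, so that both polysome fractions had higher medians in differentiating cells. In membrane monosomes the groups overlapped: the median over all pairs was 0.450 and 0.521 in differentiating and 0.486 and 0.441 in proliferating cells, and over pairs of 2000 nt and more 0.585 and 0.807 in differentiating and 0.717 and 0.709 in proliferating cells.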

How the data were processed

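The deposited values were read counts per poly(A) site and library, per the file headers, in 1 table of 125369 entries under 17005 gene symbols. The authors used cutadapt, Bowtie2 and STAR 2.5.2 with build mm9, per the submitters' processing notes; the counting step is not given in the sources used here. The 651 positions that carry several symbols, 0.56% of reads, were dropped, counts were summed per gene, and 25 date-like symbols stayed as they were. All 16 gradient libraries were fitted together in R 4.3.3 with the quasi-likelihood test of edgeR 4.0.16, TMM scaling, filterByExpr and Benjamini-Hochberg adjustment over 11176 genes, and the 4 membrane polysome libraries gave the contrast. CPM values are scaled by TMM. Site pairs needed a mean of at least 10 reads and at least 5% at the rarer site, and were tested as an isoform by state term. DESeq2 1.42.0 was an alternative. A gene with 0 reads in a group was set against 3 reads over the group, and one with 1 to 3 reads got a 95% counting interval, which covers counting error only. ER classes used log2 ratios with 1 CPM added. Scripts were tested on simulated data. Named genes were up to 10 in each direction by change, with a mean of at least 10 CPM, up to 4 called members of each list by level and 3 by p, and the muscle and cycle markers; other genes named were chosen after their values were seen. The members and lists were chosen with earlier results of these data known. Within a state every same-numbered pair of gradient groups deviated together (correlations 0.47 to 0.73), while across the 2 states membrane polysome libraries of the same number gave 0.26. A few results are not reported here.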

Additional observations from a re-analysis of the deposited data

Results flagged for a closer look

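These values are differences of the change in differentiating over proliferating cells between membrane polysomes and another fraction, on the log2 scale, tested with the replicate number as a block within each state. That fit was chosen after seeing the data, and without the block edgeR called 0 genes in either comparison. Against cytosol polysomes the difference was 3.55 for Casq2, 2.74 for Srl, 2.49 for Sgca and 2.25 for Adamts16. It was -5.02 for Ptprn, -3.28 for Retsat, -3.14 for Fkbp7, -3.13 for Fads2, -2.41 for Eprs and -2.40 for Zfyve16.

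Against membrane monosomes the difference was 3.66 for Hspb7, 3.26 for Itgb1bp2, 2.74 for Tcap, 2.50 for Apoe, 2.38 for Tifa, 2.37 for Zfp597, 2.35 for Adamts16, 2.11 for D4Wsu53e and 2.07 for Trim44. It was -2.34 for Rps15a, -2.33 for Tpt1, -2.0 for Eef1d, -1.98 for H19 and -1.97 for Ncl. Hspb7 averaged 96.1 CPM in differentiating and 0.477 CPM in proliferating membrane polysomes, and 32.2 and 2.33 CPM in the monosomes of these states. Trim44 averaged 72.8 CPM in differentiating and 67.0 CPM in proliferating membrane polysomes, and 24.6 and 96.8 CPM in the monosomes. The labels give the differentiating monosome libraries the medium of proliferating cells, and the part of this in the differences was not tested. Ribosomal protein genes such as Rps15a have many near-identical copies, so that their counts are uncertain.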

How the results depend on the processing

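The counts of called genes moved most with the treatment of replicates. The DESeq2 test called 1323 genes, 708 of them higher, and 50 higher ER-associated genes. With a replicate block, 2388 genes were called, 965 higher and 1423 lower, with 78 higher and 490 lower among the ER-associated. The contrast holds only 2 libraries a state, whose numbers do not mark a shared source in the labels. With only the 4 membrane polysome libraries fitted, 259 genes were lower, 83 of them ER-associated. Leaving out 1 library gave 121 to 389 calls, 34 to 241 higher and 87 to 196 lower, with 4 to 17 higher and 15 to 71 lower among the ER-associated. An ER threshold of 2 on the log2 scale left 9 higher and 91 lower. DESeq2 size factors gave 733 calls and no filter on low counts 662. The replicate block within state gave 51 genes that differed from cytosol polysomes and 147 that differed from membrane monosomes, where the DESeq2 test gave 2. Site pairs called were 0 at a distance of at most 2 kb, with 0 lower, since the called pair lies further apart. They were 4 with only the 4 libraries (1 higher, 3 lower) and 44 with the replicate block (37 higher, 7 lower). Of the 20 named pairs, some of which were named by a rule that used that block, 19 passed with it that had not passed without it, among them Tpm2 (edgeR adjusted p = 3.08e-07), Tpm1 (0.00724), Vamp2 (0.00255), Gsk3b (5.5e-09) and Rptor (0.000104). The block also called 15 chaperones and 17 translocation genes lower, where DESeq2 size factors gave 2 and 3. Leaving out 1 library gave 0 to 2 pairs, 0 to 1 higher and 0 to 1 lower. Of 149 named genes, 85 lost their call without differentiating replicate 1, 44 without differentiating replicate 2, 69 without proliferating replicate 1 and 98 without proliferating replicate 2, and no named gene reversed in any alternative run. The 149 include genes not called in the main fit, such as Cd63, Acta1 and Myod1, which had no call to lose. Apart from cases whose construction gives it, the cause of these moves was not tested.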
